A study of Mus musculus with 13 samples.

Results

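The genes described here encode the parts of the junctions that hold keratinocytes together. They are 45 genes chosen by symbol, of 21100 in the deposited table, namely 13 desmosome genes, 19 tight junction genes, 6 gap junction genes and 7 adherens junction genes. They were measured by poly(A) RNA sequencing in mouse basal cell carcinoma (BCC) tumors, and all 45 had a value in every tumor. The 9 GEM-BCC tumors (GEM1 to GEM9) arose in the skin of 7 female Ptch1+/- K14-CreER2 p53fl/fl mice, which carry 1 inactive copy of the Hedgehog receptor gene Ptch1 and lose p53 where keratin 14 (K14) drives the Cre recombinase. Induction was by 3 injections of 300 µg tamoxifen and 1 X-ray dose of 4 Gy. The 4 Tp-BCC tumors (TP1 to TP4) grew under the skin of 4 female Ptch1+/-p53fl/fl mice, which lack the Cre, after inoculation of 2000000 tumor cells passaged in mice, and all 4 descend from 1 single GEM-BCC tumor, so they stand for 1 tumor lineage. Both models thus carry the Ptch1+/- and p53fl/fl alleles. GEM2 and GEM3 shared a mouse, as did GEM7 and GEM8, and the age of the mice is not given in the sources used here. The question was how the transplanted model resembles its parental model in gene expression.

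Desmosomes are buttons that tie the keratin filaments of neighbouring cells together. Their cadherins, the desmogleins (Dsg) and desmocollins (Dsc), bind across the gap between cells, armadillo proteins (plakoglobin and the plakophilins) sit beneath them, and the plakin desmoplakin links these to keratin. Tight junctions seal the space between cells through claudins and MARVEL proteins, which are held by plaque and polarity proteins. Gap junctions are channels of connexins that pass small molecules from cell to cell, and adherens junctions, with classical cadherins, nectins and catenins, anchor the actin skeleton. In the epidermis, desmosomes and gap junctions change their makeup as keratinocytes leave the basal layer, and a working tight junction forms in the granular layer.

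Transcripts of the desmosomal cadherins and of several tight junction membrane proteins were lower in Tp-BCC, while most genes of the intracellular plaques did not pass the test. All 5 desmosomal cadherins were lower in Tp-BCC, Dsc3 by 3.04 ± 0.64 on the log2 scale (± SE) and Dsg2 by 2.50 ± 0.58. The MARVEL protein gene Marveld3 had at most 1 count in each Tp-BCC tumor, the other MARVEL genes Ocln and Marveld2 were lower, and so was Cldn4. In the gap junctions Gjb5 and Gjb6 were lower. Of the adherens junction genes Nectin2 was higher, Afdn was lower and no member passed a log2 fold change of 2 in either direction. Folds are Tp-BCC over GEM-BCC, and n = 9 and 4 tumors in all that follows.

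Each gene was tested within a fit of all 14390 genes that had enough counts (edgeR quasi-likelihood test, 2-sided, Benjamini-Hochberg adjustment over all 14390). A gene is said to be called where the adjusted p was under 0.05 and the log2 fold change was beyond 2 in either direction. Of the 45 genes, 43 were tested, and the claudin genes Cldn7 and Cldn23 had too few counts. Of the 43, 19 had an adjusted p under 0.05 and were lower in Tp-BCC, where 8.35% of all tested genes did so, and 3 were higher, where 11.1% of all tested genes were (19.4% in either direction). There were 11 called members, all of them lower, against 3.21% of all tested genes called lower and 2.36% called higher. For 12 members every Tp-BCC tumor lay below every GEM-BCC tumor (4.45% of all tested genes) and for 2 members above (5.5% of all tested genes). The median log2 fold change was −1.06 over the 43 members and −0.03 over all tested genes. The members, and the other junction genes listed below, were chosen with earlier results of these data known. The counts and shares therefore describe these lists and do not test them. Among the tested members, Cldn3, Cldn4, Dsc1, Marveld3 and Tjp3 had under 10 counts in every Tp-BCC tumor and could be tested through the GEM-BCC tumors alone, so each had to be lower there if it differed. With a filter that asked for counts in at least 10 tumors, which removed these 5, 19 of 38 members had an adjusted p under 0.05 and 8 were called. Of all 13221 genes tested under that filter 17.5% had an adjusted p under 0.05, 238 genes were called lower and 201 higher.

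Beside these counts stand some facts about the libraries. Total counts were 28075317 to 32629102 in GEM-BCC against 15388027 to 17494912 in Tp-BCC, so a gene near 0 is measured less finely in Tp-BCC. The labels place every GEM-BCC tumor in batch 1 and every Tp-BCC tumor in batch 2, so model and batch cannot be told apart. Levels are given as CPM, the counts of a gene scaled to a common library size. Relative to the mean of each gene, they fell with the GC content of the transcripts in TP1 (Spearman rho −0.390 over 14275 genes) and TP3 (−0.472) and rose with it in TP2 (0.593) and TP4 (0.589). In GEM-BCC they rose with it in GEM1 (0.363) and fell in the others, from −0.15 in GEM6 to −0.311 in GEM9. In TP2 and TP4 both, 16 members were lower and 17 higher than in TP1 and TP3 both, as were 35.9% and 43.6% of all tested genes. TP1 and TP3 were the most alike pair of Tp-BCC libraries. The chi-square statistic between their counts was 13.1 per gene, against 75.7 (TP2 and TP4) to 322.4 (TP3 and TP4) for the other pairs. The tumors are whole tissue, so fewer cells of a type and less RNA per cell cannot be told apart. Basal keratinocyte genes (Krt5, Krt14, Krt17, Col17a1 and Itga6) had summed levels of 10600 to 16900 CPM in the GEM-BCC tumors. The sums were 8460, 16000, 7870 and 20700 CPM in TP1 to TP4, so the defining markers of the labelled tissue were present in both models. Of the 5 genes, Col17a1 was called higher in Tp-BCC (2.0 ± 0.50, adjusted p = 0.0120, edgeR) and 4 did not pass, where 2.36% of all tested genes were called higher.

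**Figure D1:**
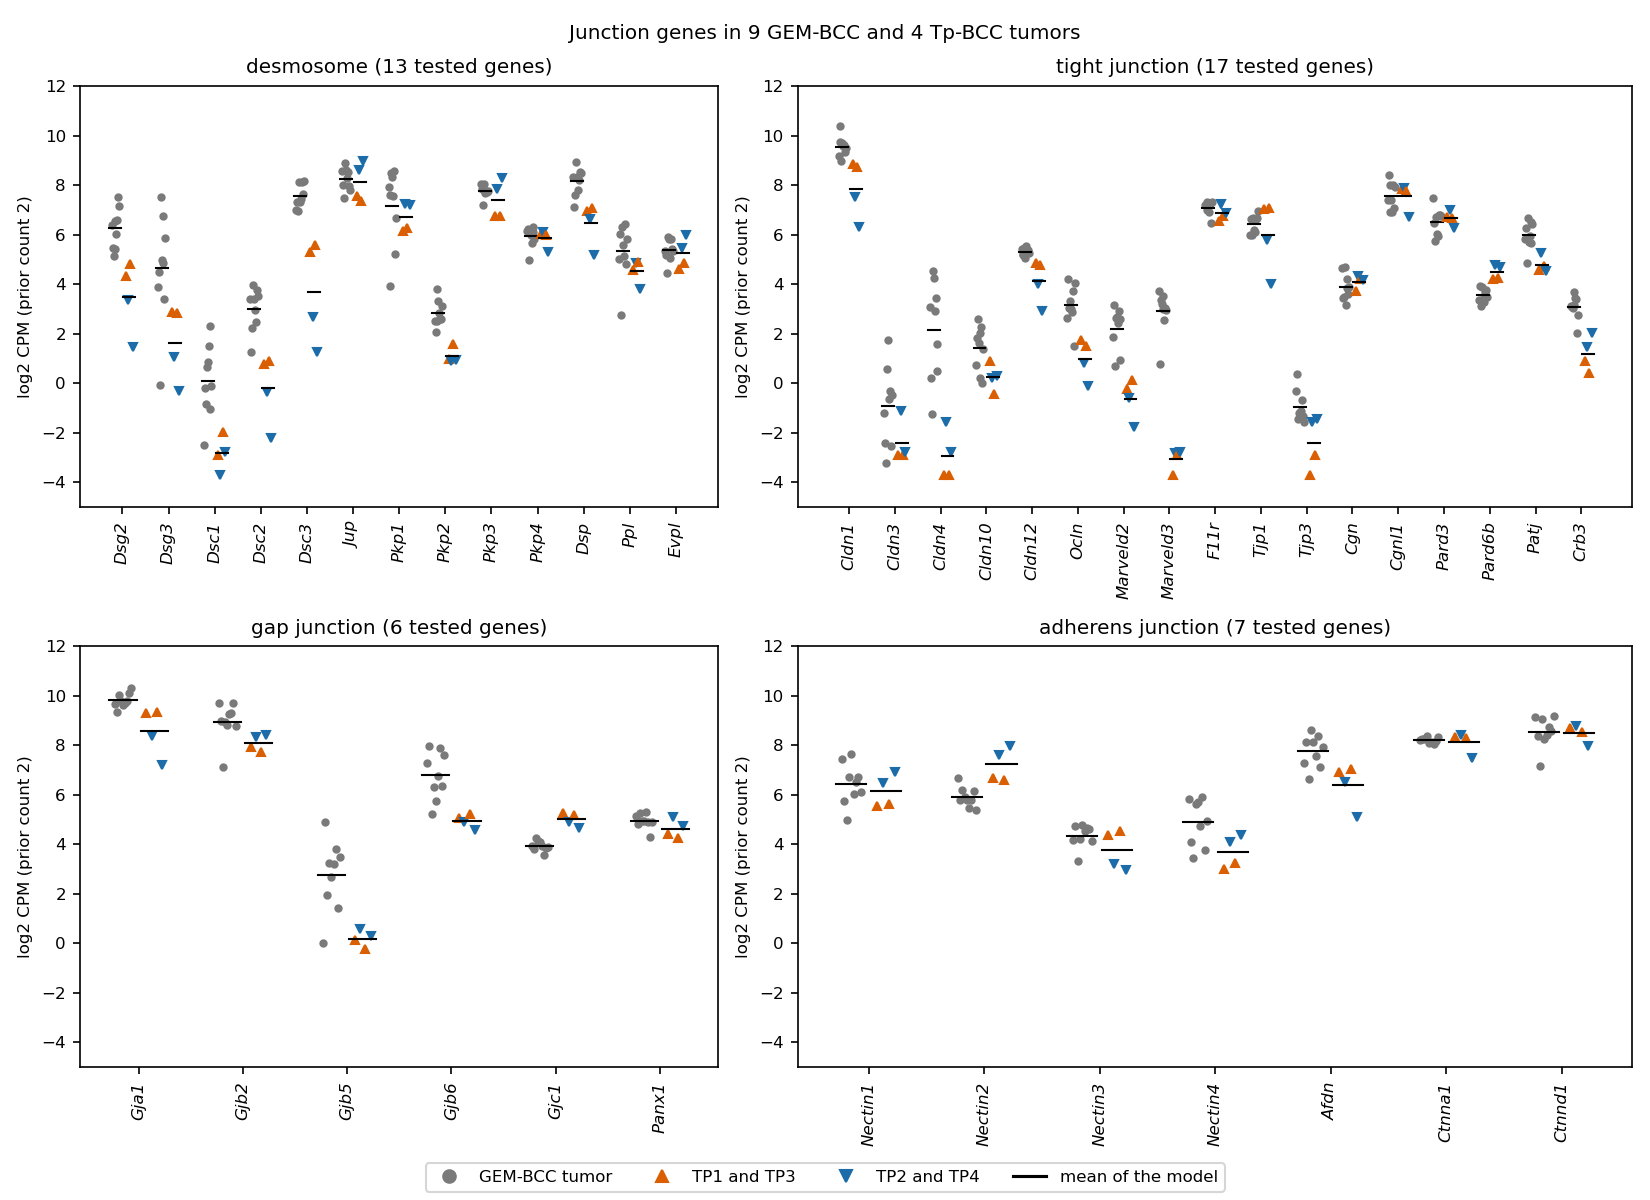
Level of each of the 43 tested junction genes in each tumor, as log2 CPM with a prior count of 2 (y axis), by junction class. Grey circles are the 9 GEM-BCC tumors, orange upward triangles TP1 and TP3, blue downward triangles TP2 and TP4, and the black line is the mean of a model. All Tp-BCC tumors lie below all GEM-BCC tumors for 12 genes, among them Dsc3, Dsg2, Marveld3 and Gjb6, and above them for Pard6b and Gjc1.

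Dsc3, the main desmocollin of basal keratinocytes, was at 124 CPM in the lowest GEM-BCC tumor, 171 in the median and 289 in the highest, and at 39.4, 6.30, 47.8 and 2.28 CPM in TP1 to TP4. Every Tp-BCC tumor was below every GEM-BCC tumor, TP2 and TP4 farthest, and the difference of −3.04 ± 0.64 had an adjusted p of 0.00458 (edgeR). Dsg2, a desmoglein found in basal cells and simple epithelia, was at 34.9, 83.2 and 181 CPM in the lowest, median and highest GEM-BCC tumor and at 20, 10.2, 28.4 and 2.64 in TP1 to TP4. Again no Tp-BCC tumor reached the lowest GEM-BCC tumor, and the log2 fold change was −2.50 ± 0.58 (adjusted p = 0.00829, edgeR). Dsc2, the widely expressed desmocollin, had 2.29, 10.4 and 15.5 CPM in GEM-BCC against 1.65, 0.707, 1.80 and 0.143 in TP1 to TP4, again without overlap. Its log2 fold change was −3.05 ± 0.62 (adjusted p = 0.00370, edgeR).

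Dsg3, the desmoglein of the deep epidermal layers and the target of autoantibodies in pemphigus vulgaris, varied most within GEM-BCC. It was at 0.886 CPM in GEM3, at 29.0 in the median tumor and at 184 in GEM4, and at 7.18, 1.99, 7.06 and 0.714 in TP1 to TP4. Here the models overlapped, through GEM3. The log2 fold change was −3.58 ± 1.09 (adjusted p = 0.0317, edgeR), and the adjusted p passed 0.05 when TP1 (0.0508), TP2 (0.0965) or TP4 (0.0902) was left out. Dsc1, which is found in differentiating layers, was scarce, with 0.0986, 0.841 and 4.87 CPM in the lowest, median and highest GEM-BCC tumor and 1, 0, 3 and 1 counts in TP1 to TP4. With 3 counts set as the floor in each Tp-BCC library it was at least 7.86-fold lower (adjusted p = 0.0137, edgeR), and the lowest GEM-BCC tumor, GEM1, lay below TP3 at 0.180 CPM. Dsc1 could be tested through the GEM-BCC tumors alone.

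The size of the fall depended on which Tp-BCC tumors were taken. With TP1 and TP3 alone, a choice made after seeing the data, the log2 fold changes were −2.19 for Dsc3 and −2.39 for Dsc2 (adjusted p = 0.00502 and 0.0371, edgeR), and −1.84 and −2.85 for Dsg2 and Dsg3 (adjusted p = 0.0627 and 0.216, edgeR), and Dsc1 had an adjusted p of 0.121 (edgeR). For TP2 and TP4 alone those of Dsc3, Dsg3, Dsc2 and Dsg2 ran from −5.52 (Dsc3) to −3.75 (Dsg2). The transcripts of the 5 cadherin genes have a GC content of 42.5 to 47.5%, and those of the 5 armadillo genes of 51.3 to 61.9%. The part of the GC trend in the difference between the pairs of Tp-BCC tumors was not tested. With the GC trend removed from each tumor, Dsc3 had a log2 fold change of −3.04, Dsg2 of −2.37, Dsc2 of −2.87 and Dsg3 of −3.39, and all 5 cadherins had an adjusted p under 0.05 (highest 0.0227, edgeR).

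Of the 5 armadillo genes, 1 passed the test, where 19.4% of all tested genes did. Jup (plakoglobin), which serves both desmosomes and adherens junctions, was at 178, 312 and 472 CPM in the lowest, median and highest GEM-BCC tumor and at 190, 385, 166 and 497 in TP1 to TP4. TP3 was just below the GEM-BCC range, TP4 just above it and the others within it, and the log2 fold change of −0.03 ± 0.31 did not pass (adjusted p = 0.961, edgeR). Of the plakophilins, which cluster desmosomal proteins, only the scarce Pkp2 passed, at −1.81 ± 0.36 (adjusted p = 0.00311, edgeR). It was at 4.14 to 13.7 CPM in GEM-BCC against 1.80 to 2.87 in Tp-BCC, without overlap. Pkp1, the plakophilin of the upper epidermal layers, Pkp3 and Pkp4 had log2 fold changes of −0.88, −0.21 and −0.09 and did not pass. Pkp1 spanned 15.3 CPM in GEM3 to 382 in GEM7. With the GC trend removed Pkp3 passed as lower (−0.63, adjusted p = 0.0155, edgeR). The armadillo genes also depended on which Tp-BCC tumors were taken. With TP1 and TP3 alone Pkp3 passed as lower (−1.04, adjusted p = 0.0115), and Jup was at −0.83 (adjusted p = 0.132, edgeR). With TP2 and TP4 alone Pkp3 and Jup were at 0.31 and 0.49 (adjusted p = 0.279 and 0.215, edgeR). Pkp3 was at 106 CPM in TP1 and in TP3, below the GEM-BCC range of 146 to 266.

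Of the plakins, desmoplakin (Dsp) passed, at −1.63 ± 0.37 (adjusted p = 0.00724, edgeR). It was at 138, 318 and 494 CPM in the lowest, median and highest GEM-BCC tumor and at 123, 97.3, 133 and 36.4 in TP1 to TP4, all below GEM-BCC. Against TP1 and TP3 alone the log2 fold change was −1.24 (adjusted p = 0.0653, edgeR). Ppl and Evpl, periplakin and envoplakin, which also line the cornified envelope, had log2 fold changes of −1.01 and −0.09 and did not pass. The adjusted p of Ppl was 0.146, and 0.0245 with GEM3, its lowest tumor by far, left out (edgeR).

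Set per kilobase of transcript, which allows levels of different genes to be compared, the 5 cadherins together were at 50.7 to 156 CPM per kb in GEM-BCC (median 81.4) and at 20.1, 5.43, 25.1 and 1.67 in TP1 to TP4. The 5 armadillo genes together were at 158 to 422 CPM per kb in GEM-BCC (median 291) and at 159, 315, 152 and 395 in TP1 to TP4. The sums of the cadherins thus did not overlap between the models and those of the armadillo genes did. Within these 5 cadherins, which leave out Dsg1a and Dsg1b, Dsc3 made up 53.4 to 78.3% in GEM-BCC against 37.1 to 62.9% in Tp-BCC. The share of Dsg2 among the 5 was 16.5 to 42.3% and 27.8 to 52.4%.

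**Figure D2:**
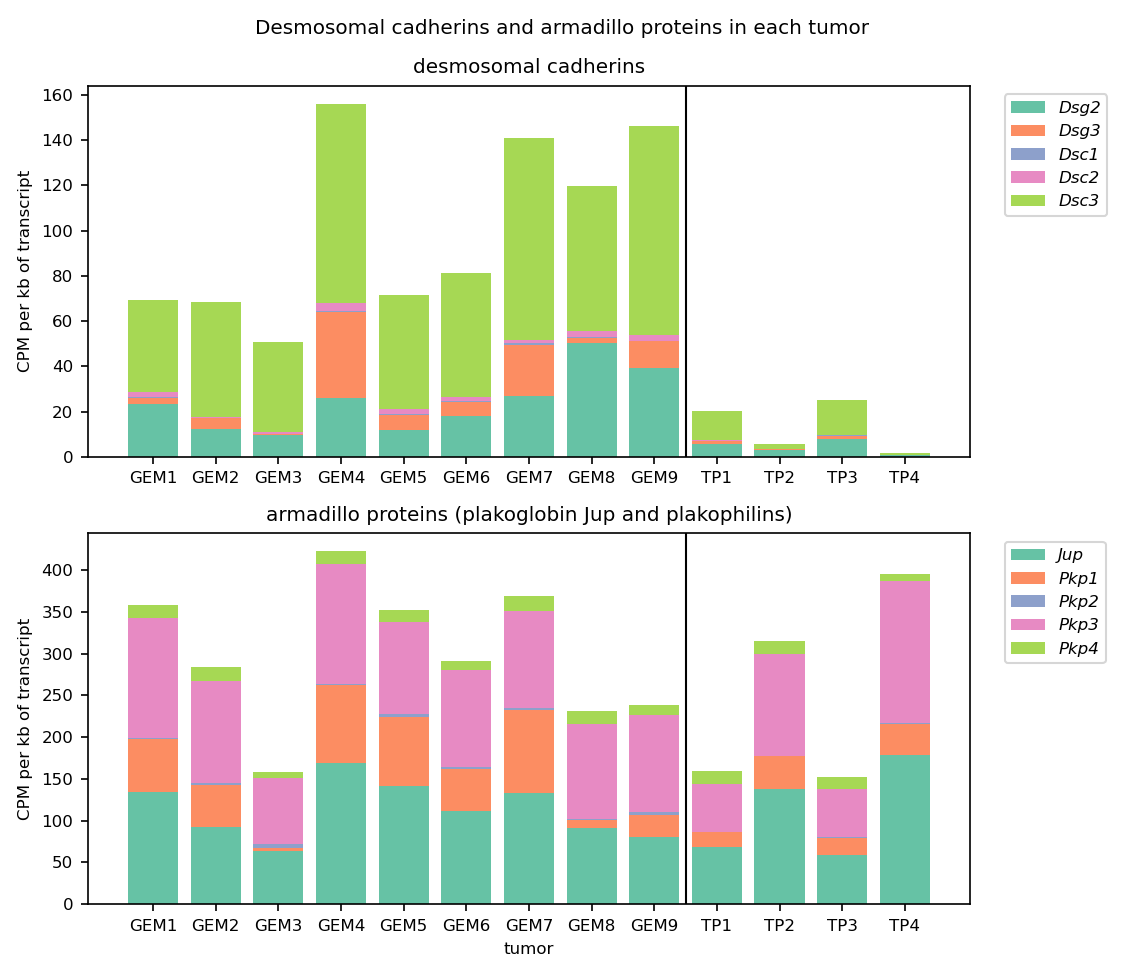
Level of the 5 desmosomal cadherin genes (top) and the 5 armadillo genes (bottom) in each tumor, as CPM per kb of transcript (y axis, from 0), stacked by gene. GEM-BCC tumors stand left of the line and Tp-BCC tumors right of it. The cadherin bars reach 50.7 to 156 in GEM-BCC against 1.67 to 25.1 in Tp-BCC, whereas the armadillo bars span 158 to 422 and 152 to 395.

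Of the 6 other desmosome genes that were listed beside the members, 5 were tested and 4 were called, all lower, where 3.21% of all tested genes were called lower. Dsg1a and Dsg1b, 2 of the 3 mouse copies of desmoglein 1, were at 84.2 to 252 and 24.6 to 53.2 CPM in GEM-BCC and at 6.51 to 54.4 and 2.35 to 19.2 in Tp-BCC. Their log2 fold changes were −2.61 ± 0.53 and −2.02 ± 0.47 (adjusted p = 0.00360 and 0.00880, edgeR). The copies are near-identical, so how reads were split between them is uncertain. The scarce copy Dsg1c was at least 1.49-fold lower against the floor, so that its call rests on a fitted fold, and it could be tested through the GEM-BCC tumors alone (adjusted p = 0.0198, edgeR). Perp, a membrane protein of desmosomes and a p53 target, was at 235 to 2540 CPM against 91.6 to 165 and had a log2 fold change of −2.18 ± 0.62 (adjusted p = 0.0233, edgeR). Corneodesmosin (Cdsn), of the outermost layers, did not pass (−1.67, adjusted p = 0.256, edgeR).

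The desmosomal cadherin genes lie side by side. In the RefSeq annotation of GRCm38.p6, an older build than the GRCm39 transcripts of the files, no other protein-coding gene separates Dsc3, Dsc2, Dsc1, Dsg1c, Dsg1a, Dsg1b, Dsg4, Dsg3 and Dsg2 on chromosome 18. Of these 9, 8 were tested and called lower, but Dsc1 and Dsg1c passed the filter on low counts through the GEM-BCC tumors alone. Dsg4, the desmoglein of hair, is listed with values in the GEM-BCC tumors alone and was not tested.

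Of the 4 MARVEL and JAM genes of the tight junction, 3 were called lower, where 3.21% of all tested genes were. Marveld3, a regulator at the tight junction, was at 1.63, 8.08 and 12.9 CPM in the lowest, median and highest GEM-BCC tumor, with counts of 45 in GEM2 and 183 to 393 in the other 8. In TP1 to TP4 it had 0, 1, 1 and 1 counts. No Tp-BCC tumor came near a GEM-BCC tumor, and with 3 counts as the floor Marveld3 was at least 43.5-fold lower (adjusted p = 7.53e-06, edgeR). Marveld3 could be tested through the GEM-BCC tumors alone. Marveld2 (tricellulin), which seals the corners where 3 cells meet, was at 1.55, 5.88 and 8.87 CPM in GEM-BCC and at 0.765, 0.579, 1.02 and 0.214 in TP1 to TP4. There was no overlap, and the log2 fold change was −2.99 ± 0.57 (adjusted p = 0.00223, edgeR). Ocln (occludin), the founding member of the family, was at 2.75, 8.22 and 18.3 CPM in GEM-BCC and at 3.24, 1.67, 2.75 and 0.857 in TP1 to TP4. The models overlapped through GEM8, the lowest GEM-BCC tumor, and the log2 fold change was −2.22 ± 0.50 (adjusted p = 0.00695, edgeR). Against TP1 and TP3 alone the adjusted p of Marveld2 and Marveld3 stayed under 0.05 (0.0382 and 0.000822) and that of Ocln was 0.0841 (edgeR). With the GC trend removed Ocln was at −1.84 (adjusted p = 0.00484, edgeR), short of the fold for a call. F11r, the junctional adhesion molecule JAM-A, had a log2 fold change of −0.22 and did not pass.

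Of the 7 claudin genes, 5 were tested and Cldn4 was called, where 3.21% of all tested genes were called lower. Cldn4 could be tested through the GEM-BCC tumors alone. It was at 0.348 CPM in GEM3, 7.51 in the median GEM-BCC tumor and 23.1 in GEM4, and had 0, 4, 0 and 1 counts in TP1 to TP4. Pooled over tumors this was 8.45 CPM in GEM-BCC and 0.0790 in Tp-BCC, a 107-fold lower value with a 95% exact Poisson interval of 45.8 to 329, which covers the counting error of the 5 Tp-BCC counts only. TP2 held 4 of these counts, and without it the fitted log2 fold change, which is no bound, moved from −6.61 to −8.37. The models did not overlap (adjusted p = 0.00412, edgeR), although GEM3, with 11 counts, lay close to TP2. Cldn4 and its neighbour Cldn3, which had a log2 fold change of −2.46 ± 1.11 and did not pass (adjusted p = 0.129, edgeR), were both highest in GEM4 and GEM5 and lowest in GEM3. That of Cldn3 was −3.64 without TP2 and −1.76 without GEM5, and did not pass in either case.

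Cldn1, the claudin on which the epidermal water barrier rests, had the highest level per kilobase of the 7. It was at 505, 763 and 1340 CPM in the lowest, median and highest GEM-BCC tumor and at 458, 185, 425 and 79.7 in TP1 to TP4. No Tp-BCC tumor reached the GEM-BCC range, but TP1 and TP3 came close to it, and the log2 fold change was −1.44 ± 0.40 (adjusted p = 0.0197, edgeR). Per kilobase it made up 83.5 to 96.6% of the 7 claudins in GEM-BCC against 88.2 to 94.0% in Tp-BCC. Cldn12, a claudin without the usual PDZ-binding end, was at −1.0 ± 0.28 (adjusted p = 0.0236, edgeR). Both lost significance when TP2 was left out (adjusted p = 0.0730 and 0.0793) and with TP1 and TP3 alone (0.115 and 0.0840, edgeR). Cldn10 did not pass (−1.37, adjusted p = 0.0781, edgeR), and untested Cldn7 and Cldn23 had 1 to 14 and 1 to 51 counts in GEM-BCC tumors and 2 and 5 counts in all Tp-BCC tumors together.

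Of the plaque genes Tjp1 (ZO-1), the scaffold that ties claudins and occludin to actin, Tjp3 (ZO-3), Cgn (cingulin) and Cgnl1 (paracingulin), none passed. The scarce Tjp3, at −1.72 (adjusted p = 0.0983, edgeR), passed with the GC trend removed (adjusted p = 0.0207, edgeR). Cgnl1, which had the highest mean log2 CPM, not set per length, of the tight junction members that did not pass, was at 121, 170 and 342 CPM in the lowest, median and highest GEM-BCC tumor and at 227, 234, 216 and 105 in TP1 to TP4. It differed by −0.04 ± 0.30 (adjusted p = 0.938, edgeR). Tjp1 had a log2 fold change of −0.06 and split the Tp-BCC tumors, with 130 and 136 CPM in TP1 and TP3, above the highest GEM-BCC tumor at 123, and 54.3 and 16.1 in TP2 and TP4, below the lowest at 62.4. The log2 fold change was 0.60 with TP1 and TP3 alone (adjusted p = 0.135) and −1.31 with TP2 and TP4 alone (adjusted p = 0.0186, edgeR).

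The polarity genes, which place the tight junction at the top of the cell, went in both directions. Crb3, the apical Crumbs protein of epithelia, was lower (−1.86 ± 0.38, adjusted p = 0.00352, edgeR), and so was Patj, a scaffold of the Crumbs complex (−1.28 ± 0.30, adjusted p = 0.00924, edgeR). Pard6b, an adaptor of the Par complex, was higher, at 8.63 to 15.2 CPM in GEM-BCC and 18.4, 27.1, 18.7 and 25.8 in TP1 to TP4, without overlap (0.93 ± 0.21, adjusted p = 0.00739, edgeR). Its scaffold Pard3 differed by 0.08 and did not pass. Crb3 and Patj kept an adjusted p under 0.05 with TP1 and TP3 alone (0.00520 and 0.0401), and Pard6b did not (0.0945, edgeR).

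Of 39 other tight junction genes listed, 27 were tested and 1 was called, where 3.21% of all tested genes were called lower. Among the 27, 2 were lower and 1 was higher, where 8.35% and 11.1% of all tested genes were. The called gene was Prkcz, the atypical protein kinase C of the Par complex, at 0.224 to 7.71 CPM in GEM-BCC against 0.118 to 0.571 in Tp-BCC (−3.42 ± 0.96, adjusted p = 0.0215, edgeR). Prkcz had 2 to 8 counts in the Tp-BCC tumors and could be tested through the GEM-BCC tumors alone. The median log2 fold change of the 27 was −0.24.

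Ocln and Marveld2 are neighbours on mouse chromosome 13 with no protein-coding gene between them, and Cldn4 and Cldn3 on chromosome 5, in RefSeq. As the called tight junction genes with a RefSeq promoter window at hand, Ocln, Marveld2 and Cldn4 are shown with the 250 bases before the first listed start of each, in GRCm38.p6. Capitals mark the letters of 4 motifs searched on both strands, the Grhl motif AACCGGTT, the E-box CACCTG, the GC box GGGCGG and the AP-1 motif TGANTCA, none of which overlapped another in these windows. The windows are chr13:100552719-100552968, chr13:100616972-100617221 and chr5:134946935-134947184, all on the minus strand.
Ocln: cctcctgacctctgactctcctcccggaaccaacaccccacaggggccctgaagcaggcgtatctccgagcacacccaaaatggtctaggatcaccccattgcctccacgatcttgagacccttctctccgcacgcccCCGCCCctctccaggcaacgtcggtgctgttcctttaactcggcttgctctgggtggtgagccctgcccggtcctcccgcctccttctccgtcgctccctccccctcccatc
Marveld2: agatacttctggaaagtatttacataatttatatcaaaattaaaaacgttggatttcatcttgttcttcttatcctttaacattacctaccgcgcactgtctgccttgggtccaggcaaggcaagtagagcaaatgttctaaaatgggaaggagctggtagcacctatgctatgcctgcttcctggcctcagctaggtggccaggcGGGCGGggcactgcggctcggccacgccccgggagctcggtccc
Cldn4: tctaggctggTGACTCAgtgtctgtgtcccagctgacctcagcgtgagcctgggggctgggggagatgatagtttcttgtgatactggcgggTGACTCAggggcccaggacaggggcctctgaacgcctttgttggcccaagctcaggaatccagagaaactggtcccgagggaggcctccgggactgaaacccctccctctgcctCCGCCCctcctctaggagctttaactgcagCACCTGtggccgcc
Cldn4 holds 4 matches, 2 of them to the AP-1 motif, and Ocln and Marveld2 hold 1 match each, to the GC box. Of 30 members with such a window, 20 held a GC box, 8 the E-box, 3 the AP-1 motif and 0 the Grhl motif, where of 27025 genes 32.9%, 17.1%, 6.87% and 0.122% did. A match to these letters is a description of the window and shows no binding.

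**Figure D3:**
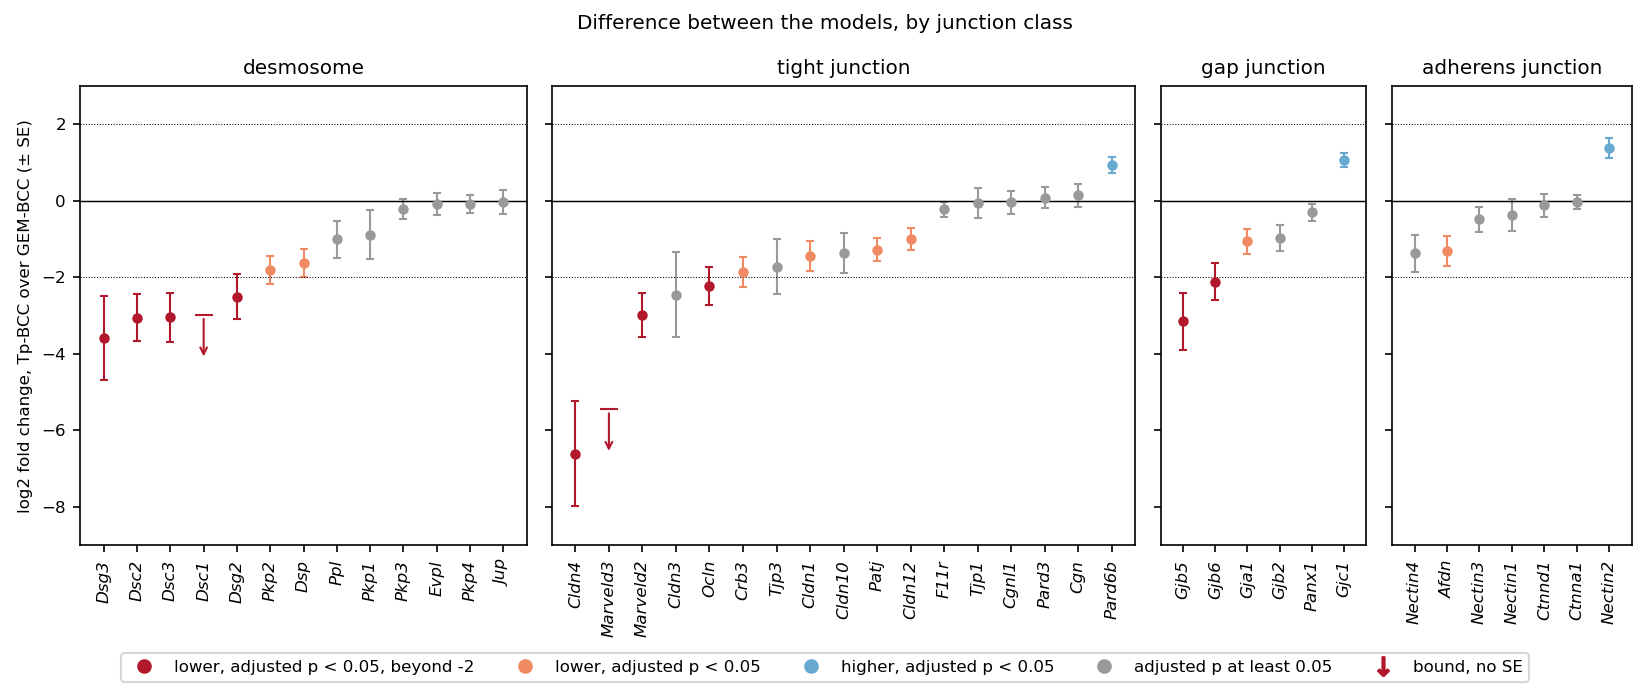
Log2 fold change of each tested member, Tp-BCC over GEM-BCC (y axis), with its SE as bars, ordered by size within each junction class. Dark red marks the members called lower, orange and blue those lower or higher with an adjusted p under 0.05 and a smaller fold, and grey the rest. Arrows start at the bound for Dsc1 and Marveld3, whose Tp-BCC tumors had 3 counts or fewer. All 5 desmosomal cadherins lie at or beyond −2.50, and Pard6b, Gjc1 and Nectin2 are the members with an adjusted p under 0.05 above 0.

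In the gap junctions, 2 of the 5 listed connexins were called lower, where 3.21% of all tested genes were. Gjb6 (connexin 30), which joins Gjb2 in the channels of growing keratinocytes, was at 37.0, 107 and 251 CPM in the lowest, median and highest GEM-BCC tumor and at 32.7, 30.0, 36.6 and 23.6 in TP1 to TP4. The Tp-BCC tumors lay close together and below the lowest GEM-BCC tumor, GEM3 (−2.11 ± 0.48, adjusted p = 0.00720, edgeR). Gjb5 (connexin 31.1), a connexin of stratified epithelia, was at 0.921, 9.09 and 29.6 CPM in GEM-BCC and at 1.00, 1.41, 0.778 and 1.14 in TP1 to TP4. It overlapped through GEM1 and had a log2 fold change of −3.15 ± 0.75 (adjusted p = 0.00992, edgeR). Against TP1 and TP3 alone Gjb5 and Gjb6 had log2 fold changes of −3.43 and −1.94 (adjusted p = 0.0703 and 0.0834, edgeR).

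The main connexins differed less. Gja1 (connexin 43), the most abundant of the 45 genes per kilobase in both models, was at 644, 876 and 1250 CPM in the lowest, median and highest GEM-BCC tumor and at 635, 334, 641 and 146 in TP1 to TP4. TP1 and TP3 lay just under the lowest GEM-BCC tumor, and the log2 fold change was −1.06 ± 0.33 (adjusted p = 0.0349, edgeR). Significance was lost when GEM8 (0.0514), GEM9 (0.0565), TP2 (0.110) or TP4 (0.0606) was left out. It was also lost with library size alone, counts summed per mouse, the length correction and the replicate block. With TP1 and TP3 alone the log2 fold change of Gja1 was −0.52 (adjusted p = 0.194, edgeR). Gjb2 (connexin 26), mutated in hereditary deafness, was at 140, 505 and 821 CPM in GEM-BCC and at 242, 320, 212 and 342 in TP1 to TP4. It overlapped through GEM3 alone and did not pass (−0.97 ± 0.35, adjusted p = 0.0644), but did with GEM3 left out (−1.13, adjusted p = 0.00394, edgeR). Gjb2 also passed with library size alone, with counts summed per mouse and with DESeq2. Panx1, which forms channels in the membrane of single cells, had a log2 fold change of −0.30 and did not pass.

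Gjc1 (connexin 45), known from the heart's conduction system and the walls of vessels, was the connexin that was higher. It was at 11.6, 15.2 and 19.1 CPM in the lowest, median and highest GEM-BCC tumor and at 38.4, 29.4, 36.2 and 25.3 in TP1 to TP4, without overlap (1.07 ± 0.19, adjusted p = 0.00122, edgeR). With TP1 and TP3 alone the adjusted p was 0.00170. Its share of the 5 connexins per kilobase was 0.197 to 0.357% in GEM-BCC against 0.963 to 2.26% in Tp-BCC, and 0.759 to 2.00% and 4.79 to 5.20% when the longest transcript gave the length.

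Of the other gap junction genes, Gja4 and Gja5, which encode connexins of arterial endothelium, were higher in Tp-BCC. Gja4 was at 4.58 to 10.5 CPM in GEM-BCC and at 12.2, 29.1, 13.2 and 27.8 in TP1 to TP4, without overlap (1.47 ± 0.29, adjusted p = 0.00289, edgeR). Gja5 was at 0.799 to 3.85 CPM in GEM-BCC and at 5.53, 6.36, 4.37 and 5.43 in TP1 to TP4, also without overlap (1.53 ± 0.39, adjusted p = 0.0132, edgeR). Both were named after their values were seen. Of 6 endothelial markers 4 (Cdh5, Kdr, Tie1 and Emcn) were higher in Tp-BCC and 0 lower, where 11.1% and 8.35% of all tested genes were. The summed level of the 6 markers was 84.6 to 216 CPM in GEM-BCC against 302 to 373 in Tp-BCC. None was at 0. Their part in the difference of Gjc1, Gja4 and Gja5 was not tested.

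Over the 7 adherens junction genes the log2 fold change had a median of −0.37. Of them 1 was lower, 1 higher and 0 called, where 8.35% of all tested genes were lower and 11.1% higher. Nectin2, an adhesion molecule and a ligand of immune receptors, was higher, with 41.1, 55.8 and 103 CPM in the lowest, median and highest GEM-BCC tumor and 102, 195, 96.6 and 253 in TP1 to TP4. GEM1 alone of the GEM-BCC tumors reached the Tp-BCC range (1.38 ± 0.27, adjusted p = 0.00297, edgeR). With TP1 and TP3 alone the log2 fold change was 0.69 (adjusted p = 0.113) and with TP2 and TP4 alone 1.86 (adjusted p = 0.000208, edgeR). The transcripts of Nectin2 have a GC content of 59.8%, and with the GC trend removed the log2 fold change was 1.0 (adjusted p = 0.000613, edgeR). Nectin1, Nectin3 and Nectin4 had log2 fold changes of −0.37, −0.48 and −1.37 and did not pass, Nectin4 at an adjusted p of 0.0566 that became 0.0146 with the GC trend removed (edgeR).

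Afdn (afadin), which ties nectins to actin, was at 97.8 to 393 CPM in GEM-BCC and 120, 91.7, 132 and 34.1 in TP1 to TP4 (−1.31 ± 0.40, adjusted p = 0.0312, edgeR). Its adjusted p rose above 0.05 when GEM7 (0.0508), TP2 (0.0832) or TP4 (0.0799) was left out. Ctnnd1 (p120-catenin) was at 141, 376 and 570 CPM in the lowest, median and highest GEM-BCC tumor and at 413, 438, 367 and 252 in TP1 to TP4 (−0.12 ± 0.30, adjusted p = 0.809, edgeR), and Ctnna1 (alpha-catenin) differed by −0.04 ± 0.18, and neither passed. Of 14 other adherens junction genes listed, 12 were tested, 1 was lower, 1 higher and 0 called, beside the same 8.35% and 11.1% of all tested genes. The classical cadherins Cdh1 and Cdh3 were among those that did not pass, at 0.31 ± 0.32 and 0.42 ± 0.32. Ctnnb1 (beta-catenin), which binds them, did not pass either (−0.76 ± 0.26, adjusted p = 0.0529, edgeR), but all Tp-BCC tumors, at 452 to 1310 CPM, lay below all GEM-BCC tumors, at 1330 to 2130.

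**Figure D4:**
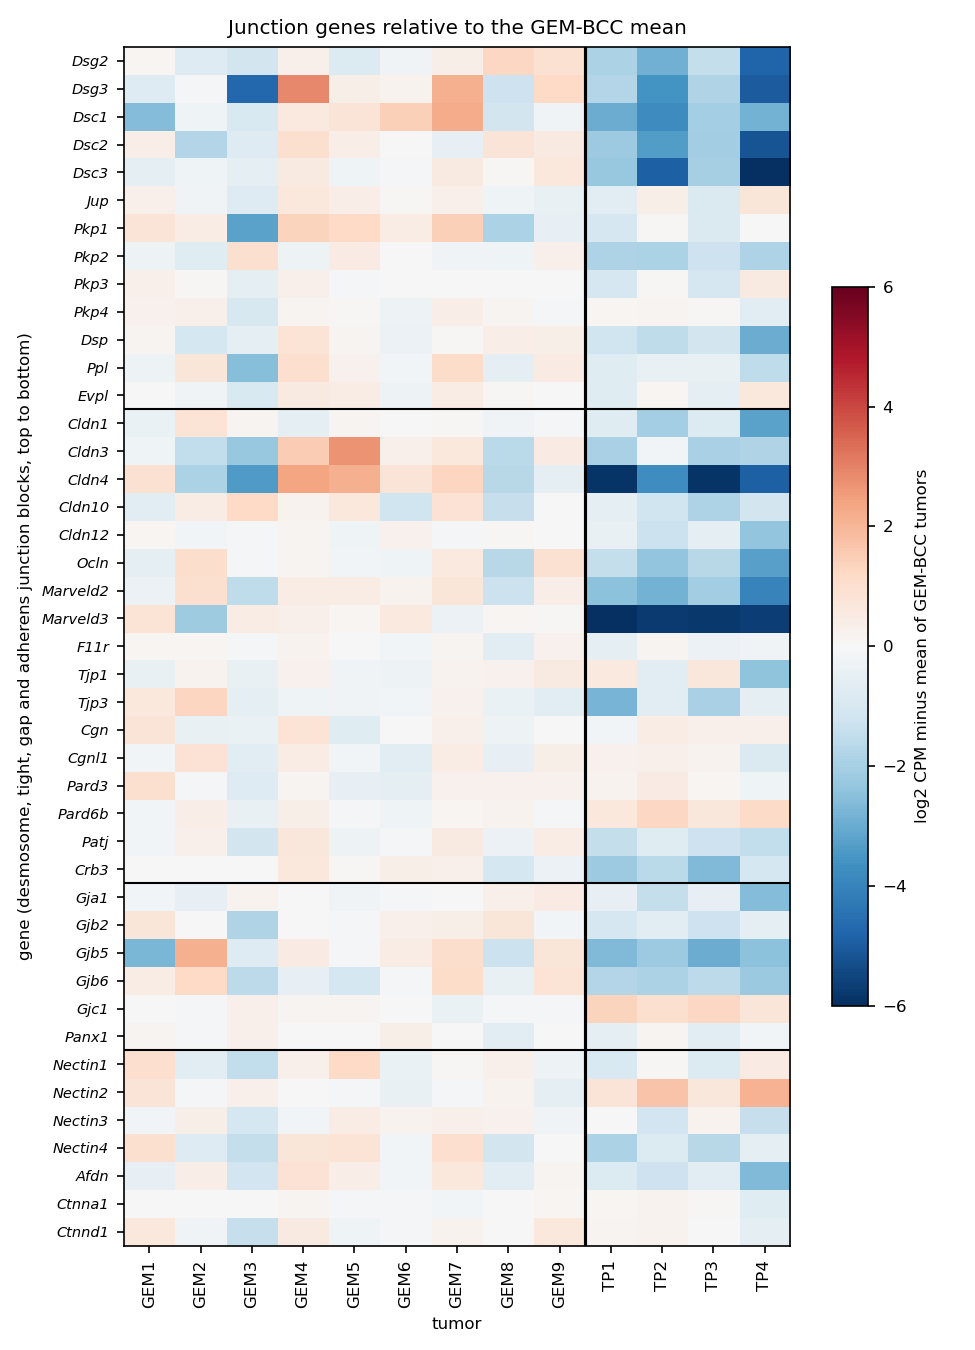
Log2 CPM of each tested member (rows, in blocks of desmosome, tight, gap and adherens junction genes) minus its mean over the 9 GEM-BCC tumors, in each tumor (columns), from blue (lower) to red (higher), with colors ending at −6 and 6. The black vertical line divides GEM-BCC from Tp-BCC. The rows of Dsg2, Dsc2 and Dsc3 are darkest in TP2 and TP4, Marveld3 is dark in all Tp-BCC tumors, and GEM3 is the lowest GEM-BCC tumor for 22 of 43 genes.

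The members also varied among tumors of 1 model. The mean log2 CPM of the 13 desmosome genes ran from 4.27 in GEM3 to 6.31 in GEM4 (median 5.61) and was 4.15, 3.89, 4.38 and 3.31 in TP1 to TP4, so GEM3 lay within the Tp-BCC range. That of the 17 tested tight junction genes was 3.46 to 4.51 in GEM-BCC against 2.19 to 2.85 in Tp-BCC, and that of the 6 gap junction genes 5.64 to 6.63 and 4.98 to 5.36, both without overlap. That of the 7 adherens junction genes was 5.70 to 6.97 and 6.11 to 6.44. No test was made of these means, since the genes were chosen with results of these data known. GEM3 was the lowest GEM-BCC tumor for 22 of 43 members and GEM4 the highest for 11, and TP4 was the lowest Tp-BCC tumor for 22. The SD of log2 CPM over tumors was larger in GEM-BCC for 20 of 43 members, with medians of 0.56 in GEM-BCC and 0.67 in Tp-BCC. The Tp-BCC value includes the split of TP2 and TP4 from TP1 and TP3, whose GC trends were opposite. In TP2 and TP4 both, 16 members were lower and 17 higher than in TP1 and TP3 both. The part of the GC trend in the SD was not tested.

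Markers of differentiated epidermis were set beside these genes. The 8 of 10 such genes with values (Krt1, Krt10, Ivl, Lor, Sbsn, Krtdap, Lce1a1 and Sprr1a) summed to 27.8 CPM in GEM3, 113 in the median GEM-BCC tumor and 435 in GEM4, and to 42.8 to 55.0 in Tp-BCC. Of 7 tested, Krt10 and Sprr1a were lower in Tp-BCC with an adjusted p under 0.05 and 0 were higher. All 7 had a log2 fold change below 0 (median −2.8), as had 51.4% of all tested genes. None of the 8 was at 0 in all tumors of a model. GEM3, with the least of these markers, was the lowest GEM-BCC tumor for 22 of 43 members, Dsg2, Dsg3, Dsc3 and Cldn4 among them, and the highest for 3. GEM4, with the most, was the highest for 11, Dsg3, Dsc2 and Cldn4 among them, and the lowest for 1. GEM8, next lowest in these markers at 52.1 CPM, was the lowest for 5 members but the highest for Dsg2, at 181 CPM. The Tp-BCC sums lay above that of GEM3, but they were mostly 1 gene, Sbsn, at 34.5 to 45.8 CPM in Tp-BCC against 9.90 in GEM3. The 5 desmosomal cadherins together were at 50.7 CPM per kb in GEM3 against 1.67 to 25.1 in Tp-BCC. The part of differentiated cells in the differences was not tested.

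Set per kilobase, the order of the members was led by Gja1 in both models. By the median transcript length it was at 2520 CPM per kb in the median GEM-BCC tumor and 1390 in the median Tp-BCC tumor, and by the longest transcript at 275 and 152, still the highest of the 45, since the annotation lists short Gja1 transcripts. Cldn1 followed, by the longest transcript, at 235 CPM per kb in GEM-BCC, within the range of Gjb2 at 210. By the median transcript length Dsc3 stood 10th in GEM-BCC, at 54.9 CPM per kb, and 22nd in Tp-BCC, at 7.32, and Nectin2 18th, at 23.8, and 8th, at 63.4. By the longest transcript Dsc3 stood 12th, at 32.1, and 23rd, at 4.29, and Nectin2 15th, at 20.4, and 8th, at 54.4. Among the 4 nectins the share of Nectin2, by the median length, was 17.7 to 56.3% in GEM-BCC against 48.3 to 66.4% in Tp-BCC. By the longest transcript it was 28.2 to 73.7% and 71.9 to 76.9%, so the models overlapped in either case.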

How the data were processed

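Poly(A) RNA of 13 tumors, 9 GEM-BCC from 7 mice and 4 Tp-BCC from 4 mice, was sequenced with 1 library per tumor. According to the submitters' notes and the study's methods, the authors aligned reads with Bowtie2 2.3.4.3 to transcripts of GRCm39 and quantified them with RSEM 1.3.1. The values are the expected counts per gene deposited by the authors, neither rounded nor normalized. Total counts per tumor were 28075317 to 32629102 (GEM-BCC) and 15388027 to 17494912 (Tp-BCC).

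The 45 members, the lists of other junction genes and the cell type markers were chosen with earlier results of these data known. Groups followed the labels. Counts were rounded, genes with a value in all 13 tumors and at least 10 counts in at least 4 were kept, and the models were compared with edgeR 4.0.16 (TMM, robust quasi-likelihood F test, no covariate) in R 4.3.3, with Benjamini-Hochberg adjustment over all genes tested. Each SE was taken as the absolute log2 fold change divided by the square root of F. Where every tumor of a model had 3 counts or fewer, a bound computed with 3 counts in each library is given. The script was tested on simulated counts. CPM used TMM library sizes, log2 CPM a prior count of 2, and levels per kb the median transcript length in GENCODE vM21, which annotates GRCm38 and was used for lengths and GC content only. Intervals and floors cover counting error only. GEM2 and GEM3, and GEM7 and GEM8, shared a mouse and were treated as separate tumors, with counts summed per mouse as an alternative. Members called were described in full, those with an adjusted p under 0.05 by fold and p, with the member of each class that had the highest mean log2 CPM among those that did not pass. Members and other genes named beyond this rule were chosen after their values were seen. Alternatives were DESeq2 1.42.0 and its size factors, library size alone, other filters, dispersions that are not robust, missing values set to 0, a replicate block, GC content and transcript length corrections (lowess, span 0.3), other thresholds and prior counts, the longest transcript, and each tumor left out. Protein sequences were not used here. Some genes of the list of other gap junction genes are not reported here, and no counts are given over that list.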

Additional observations from a re-analysis of the deposited data

Results flagged for a closer look

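In 14 of 86 sets of values (43 genes in each of 2 models) the highest or lowest tumor stood apart by Dixon's criterion, where chance alone flags about 1 in 20, or 4.3. Values are log2 CPM.

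GEM3 was far below the other GEM-BCC tumors for 5 genes, namely Ctnnd1 at 7.14 (others 8.26 to 9.16), Gjb2 at 7.13 (8.79 to 9.68), Ppl at 2.75 (4.79 to 6.41), Pkp3 at 7.19 (7.67 to 8.05) and Nectin3 at 3.31 (4.13 to 4.79). GEM8 was low for F11r at 6.47 (6.92 to 7.32) and Panx1 at 4.27 (4.81 to 5.30). GEM2 was low for Marveld3 at 0.77 (2.56 to 3.70).

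In Tp-BCC, TP4 was low for Ctnna1 at 7.49 (8.29 to 8.41), Pkp4 at 5.29 (5.99 to 6.10) and Cgnl1 at 6.71 (7.75 to 7.87). TP2 was high for Cldn3 at −1.12 (−2.90 to −2.77) and TP3 for Pkp2 at 1.56 (0.91 to 0.97). TP1 was low for Marveld3 at −3.73 (−2.89 to −2.77), a difference of 0 counts against 1.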

How the results depend on the processing

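Of the 43 members, 22 had an adjusted p under 0.05 and 11 were called. Over normalization, filter, dispersion, DESeq2, GC and length alternatives and counts summed per mouse these numbers were 19 to 25 and 8 to 12. Of all tested genes 17.2 to 28.6% then passed, and 238 to 569 genes were called lower. With each tumor left out 17 (without TP2) to 25 (without GEM3) members passed and 10 to 11 were called. Of all tested genes 10.8 to 21.1% then passed, and 324 to 519 genes were called lower. A fold threshold of 1 gave 20 called members, and the share of all tested genes at that threshold is not given here. With TP1 and TP3 alone, chosen after seeing the data, 11 passed (10.4% of all tested genes) and 7 were called, all lower. In that fit 235 of 14305 genes were called lower. With TP2 and TP4 alone 24 passed (42.9% of all tested genes, against 19.4% with all tumors) and 14 were called, all lower. In that fit 1527 of 14275 genes were called lower, against 462 of 14390 with all tumors. With the numbers 1 to 4 of the labels as a replicate block, which leaves fewer degrees of freedom, 1 member (Marveld3) passed and was called, and 106 genes higher and 72 lower of all tested. The tumors of 1 number come from different mice and their deviations were not positively correlated (−0.381, −0.122, −0.101 and −0.179), so the numbers do not pair them. Class means moved by less than 1 SD with a prior count of 0.5.

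Direction turned for members that did not pass. With the GC correction Ctnna1 was at 0.30, Ctnnd1 at 0.22 and Tjp1 at 0.08. With the length correction Ctnnd1 was at 0.19, Evpl at 0.47, Jup at 0.19, Tjp1 at 0.01, Pkp4 at 0.09 and Cgnl1 at 0.23. With TP1 and TP3 alone Ctnna1 was at 0.09, Tjp1 at 0.60, Pkp4 at 0.03, Nectin3 at 0.04, Cgnl1 at 0.14 and Cgn at −0.01, and with TP2 and TP4 alone Evpl was at 0.33, Jup at 0.49, Pkp3 at 0.31 and Nectin1 at 0.10. Under the replicate block Ctnnd1 was at 0.06 and Evpl at 0.02, and with counts summed per mouse Cgnl1 was at 0.00. Leaving out each tumor gave −0.15 to 0.09 for Ctnna1, −0.46 to 0.09 for Evpl (0.04 without TP3), −0.42 to 0.18 for Jup (0.00 without GEM7), −0.39 to 0.26 for Tjp1 (0.01 without GEM9), −0.21 to 0.03 for Pkp4, −0.16 to 0.12 for Cgnl1 (0.01 without GEM4) and −0.06 to 0.20 for Pard3 (−0.03 without GEM3). The causes were not tested. The Tp-BCC depth limits what can be said of Marveld3, Dsc1, Cldn4, Cldn3, Cldn7, Cldn23 and Tjp3.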
